A study of Homo sapiens with 15 samples.

Results

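NODAL signaling was followed through 7 genes in 15 bulk RNA-seq libraries of differentiating human embryonic stem cells. The genes were chosen by name: the ligands NODAL and GDF3, the co-receptor TDGF1, the secreted inhibitors LEFTY1, LEFTY2 and CER1, and the transcription factor FOXH1. They are 7 of the 60605 genes in the table, and all 7 are among the 21206 genes that reached an FPKM of 1 in at least 1 library. FPKM is the read count of a gene per kilobase of its exons, scaled by the total of counted reads in the library, so it can be compared between genes.

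All libraries came from H1, an established human embryonic stem cell line with the genotype label WT. On day 0 the cells went from maintenance medium into DF medium with CHIR-99021, an activator of WNT signaling, and on day 1 into DF medium with insulin, which made mesendoderm progenitors. Days 0, 1 and 2 have 1 library each and are shared by 3 arms. From day 2 the cells either differentiated spontaneously without passaging (NP-ctrl), or stayed unpassaged with IWP2, which blocks the secretion of WNT proteins, present from day 2 to day 4 (NP-IWP2), or were dissociated with EDTA and replated on day 2 with no WNT inhibitor (passaged). Each arm has 1 library on each of days 3, 5, 7 and 10. With 1 library per group, a difference between 2 libraries has no replicate check, and the 95% intervals of the ratios below cover counting error only.

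NODAL is a secreted protein of the TGFβ family. It binds activin receptors together with a co-receptor of the EGF-CFC family, TDGF1 (also called CRIPTO) or CFC1 (CRYPTIC), and the receptors activate SMAD2 and SMAD3, which act on DNA with SMAD4 and partners such as FOXH1. The pathway is known for maintaining human pluripotent cells, for inducing the primitive streak, endoderm and mesoderm, and for left-right patterning of the heart and other organs. LEFTY1 and LEFTY2, which bind the receptor complex or NODAL, and CER1, which binds NODAL in the extracellular space, restrain the pathway and are also among its target genes.

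Libraries held 13254723 to 20250115 counted reads and 26241 to 30269 genes with a count above 0. A count of 3, taken as the floor of detection, was worth an FPKM of 0.148 to 0.226 on a gene with 1 kilobase of exons. The labelled cell type was checked on day 0, where the pluripotency genes POU5F1, NANOG and SOX2 were at FPKM 625, 37.2 and 97.1. On day 10, POU5F1 and NANOG were at FPKM 0.03 or below in all 3 arms, while SOX2 was at 4.89 in the passaged library. Mitochondrial reads made up 1.53% of the passaged day 3 library and 10.3% of the passaged day 10 library, with the other 13 between 3.71% and 6.14%. Their part in the results on these libraries was not tested.

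The 7 genes lie on 6 chromosomes, and their coordinates in the table were the same as in GENCODE release 44 of the GRCh38 build. NODAL (ENSG00000156574) lies at chr10:70431936-70447951 on the minus strand, GDF3 (ENSG00000184344) at chr12:7689784-7695775 on the minus strand, and TDGF1 (ENSG00000241186) at chr3:46574534-46582457 on the plus strand. LEFTY1 (ENSG00000243709) and LEFTY2 (ENSG00000143768) are neighbouring paralogs on the minus strand of chromosome 1, at chr1:225886282-225911382 and chr1:225936598-225941383, so reads could be split between them. CER1 (ENSG00000147869) lies at chr9:14719724-14722733 on the minus strand. FOXH1 has the identifier ENSG00000160973. Whether reads were counted by strand is not given in the sources used here, and exons of FOXH1 overlap those of KIFC2, exons of TDGF1 those of LRRC2, and exons of NODAL those of an unnamed gene (ENSG00000280401), each on the opposite strand. Across the 15 libraries KIFC2 ranged from FPKM 2.53 to 14.25, LRRC2 from 0.91 to 5.25 and the unnamed gene from 0.04 to 1.22.

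The 250 bases before the RefSeq gene start (GRCh38.p14) are shown for NODAL, GDF3 and CER1. All 3 are on the minus strand and are written 5′ to 3′ along the gene. The NODAL window is chr10:70441682-70441931, within the longer gene interval of the table, the GDF3 window is chr12:7695776-7696025, and the CER1 window is chr9:14722734-14722983. Capitals mark matches on either strand to TGTNNATT, a pattern bound by FOXH1, or to CAGAC, a pattern bound by SMAD proteins.
NODAL: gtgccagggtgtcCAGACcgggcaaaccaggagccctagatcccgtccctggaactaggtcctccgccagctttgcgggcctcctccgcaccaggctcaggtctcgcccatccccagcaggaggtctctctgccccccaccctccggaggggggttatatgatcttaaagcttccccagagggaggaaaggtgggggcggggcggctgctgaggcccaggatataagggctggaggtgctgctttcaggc
GDF3: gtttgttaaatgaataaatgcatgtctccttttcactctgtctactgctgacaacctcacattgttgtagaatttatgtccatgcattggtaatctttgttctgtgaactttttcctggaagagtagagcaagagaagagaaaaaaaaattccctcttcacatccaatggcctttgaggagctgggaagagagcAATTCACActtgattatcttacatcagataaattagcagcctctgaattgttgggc
CER1: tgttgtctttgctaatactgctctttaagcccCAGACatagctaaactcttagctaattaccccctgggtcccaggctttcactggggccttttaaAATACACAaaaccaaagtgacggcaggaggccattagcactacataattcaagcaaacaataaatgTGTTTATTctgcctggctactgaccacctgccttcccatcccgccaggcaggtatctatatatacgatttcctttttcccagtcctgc
The CER1 window holds 2 FOXH1 matches, which do not overlap any other match, at 154 to 147 and 88 to 81 bases before the start, and a CAGAC match at 218 to 214. The GDF3 window holds 1 FOXH1 match, at 56 to 49, and no CAGAC, and the NODAL window holds 1 CAGAC, at 237 to 233, and no FOXH1 match. Of 35116 RefSeq promoters searched over the same length and on both strands, 9.88% held the FOXH1 pattern and 38.0% the CAGAC pattern. The WNT-responsive pattern CTTTGAT was in 2.26% of them and in none of these 3 windows. LEFTY1, LEFTY2, TDGF1 and FOXH1 are not shown.

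In the shared part of the course, NODAL, CER1 and FOXH1 were highest on day 1, while GDF3, TDGF1 and LEFTY1 were highest on day 0. A difference of at least 1 in log2(FPKM + 1) between 2 libraries is called a change of level below, higher or lower, and it is a threshold of size with no test behind it. From day 0 to day 1, 3 of the 7 genes were higher and 1 was lower by this measure, where 6.74% of all 21206 genes passed it in either direction. From day 1 to day 2, none was higher and 4 were lower, with 7.00% of all genes past the threshold. The median of the 7 log2 differences was -0.21 for the earlier step and -1.17 for the later one, and the median of all genes was 0 for both.

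NODAL was at FPKM 16.86 on day 0, 121.78 on day 1 and 6.96 on day 2. Day 1 stood far above its neighbours, 7.22-fold over day 0 (95% interval 6.63 to 7.88) and 17.5-fold over day 2. GDF3, a ligand expressed in pluripotent cells, was at 35.13 on day 0, 30.23 on day 1 and 7.63 on day 2, so that it did not share the maximum of NODAL and was lower by 3.96-fold from day 1 to day 2. TDGF1 had the highest level of the 7 genes on day 0, at 228.47, and was at 197.59 on day 1 and 87.34 on day 2. Its ratio of day 2 to day 1 was 0.442 (0.426 to 0.458).

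The inhibitors did not follow 1 course. CER1 was near the floor on day 0, with 9 counts and FPKM 0.43, and reached 200.24 on day 1 and 174.18 on day 2. This was a 465-fold difference from day 0 to day 1 (245 to 1017), the largest among the 7 genes at this step. LEFTY1 was highest on day 0, at 26.02, and was at 9.38 on day 1 and 1.46 on day 2. LEFTY2 was at 4.54 on day 0, 1.80 on day 1 and 0.93 on day 2. Both LEFTY genes thus had lower values on day 1, when NODAL and CER1 were high.

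FOXH1, the DNA-binding partner of SMAD2 and SMAD3, was at FPKM 50.66 on day 0, 135.04 on day 1 and 92.94 on day 2. Its day 1 level was 2.67-fold that of day 0 (2.52 to 2.82). Unlike NODAL, FOXH1 kept most of this level on day 2, at a ratio of 0.688 to day 1 (0.660 to 0.718).

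**Figure D1:**
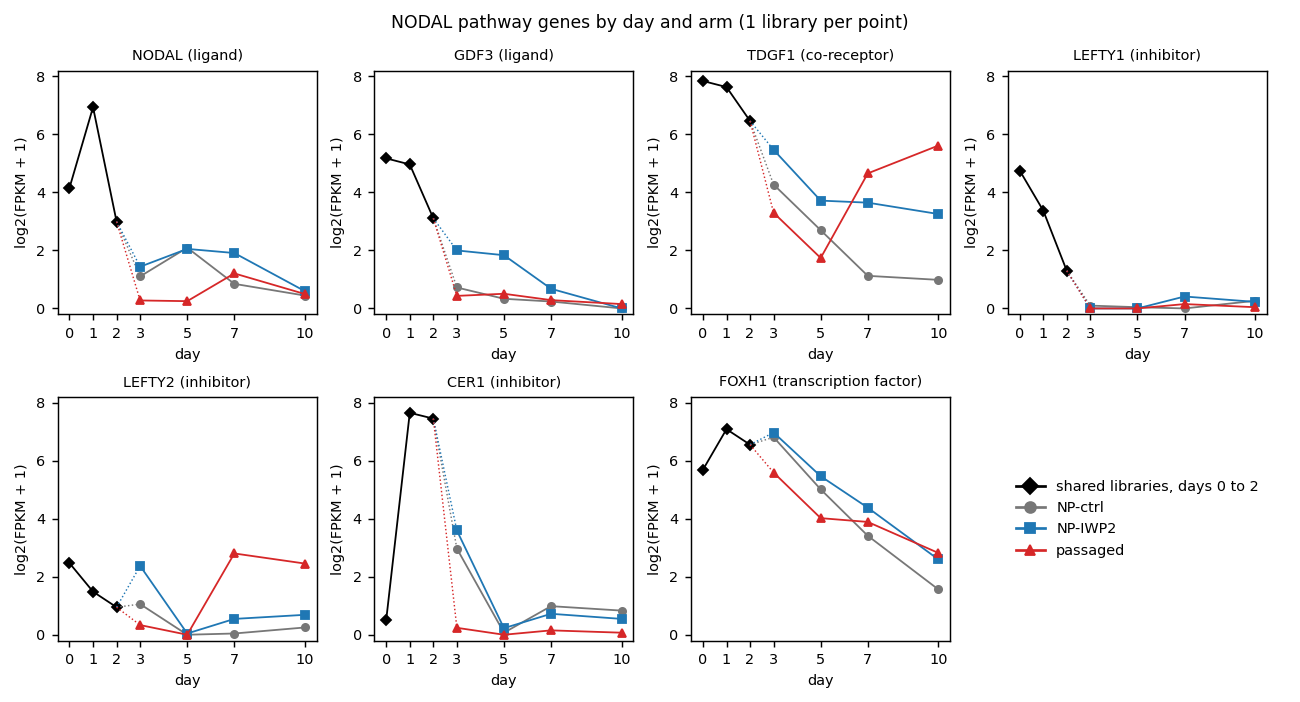
Level of each of the 7 genes as log2(FPKM + 1) against the day of differentiation, with 1 library per point. Black diamonds are the shared libraries of days 0 to 2, gray circles NP-ctrl, blue squares NP-IWP2 and red triangles passaged, and dotted lines join day 2 to each arm. TDGF1 and LEFTY2 show the passaged arm lowest on day 3 and highest on days 7 and 10.

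Between day 2 and day 3, NODAL, GDF3, LEFTY1 and CER1 were lower in every arm and FOXH1 passed the threshold in none. In NP-ctrl 5 of the 7 genes were lower and none was higher, with 8.71% of all genes past the threshold. In NP-IWP2 4 were lower and 1, LEFTY2, was higher, with 8.98% of all genes. In the passaged arm 5 were lower and none higher, with 11.8% of all genes. These 3 comparisons share the day 2 library. The median difference of the 7 genes was -1.89 for NP-ctrl, -1.11 for NP-IWP2 and -2.68 for passaged cells, against medians of 0, 0.07 and 0.06 for all genes.

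NODAL on day 3 was at FPKM 1.15 in the NP-ctrl library, 1.71 with IWP2 and 0.21 (6 counts) after passaging, from 6.96 on day 2. GDF3 was at 0.65, 3.00 and 0.35 in the same order, from 7.63. TDGF1 was at 18.32, 43.34 and 8.84, from 87.34. For all of these genes the passaged library had the lowest FPKM and the NP-IWP2 library the highest of the 3. Not every step of this order was resolved by counting error. The GDF3 ratio of passaged to NP-ctrl was 0.548 (0.171 to 1.55). The NODAL ratio of NP-IWP2 to NP-ctrl was 1.48 (0.951 to 2.32).

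CER1 on day 3 was at FPKM 6.85 in the NP-ctrl library, 11.08 with IWP2 and 0.18, or 3 counts, after passaging. Against 4342 counts on day 2, the NP-ctrl ratio was 0.0393 (0.0329 to 0.0466), the NP-IWP2 ratio 0.0636 (0.0546 to 0.0737) and the passaged ratio 0.00102 (0.000211 to 0.00299). The intervals of the 3 arms did not overlap. LEFTY1 had 2 counts in NP-ctrl and 0 in the other 2 libraries, from 56 counts on day 2, which is at least 12.4-fold lower in NP-IWP2 and at least 12.6-fold lower in the passaged library, with the 0 set to the floor of 3 counts in that library. LEFTY2, from FPKM 0.93 on day 2, was at 1.08 in the NP-ctrl library, 4.18 with IWP2 and 0.26 (8 counts) after passaging. FOXH1, from 92.94, was at 111.28, 124.61 and 47.22 in the same order.

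The comparison of passaged with NP-ctrl cells on the same day asks what dissociation and replating changed relative to spontaneous differentiation. By the study's account replating also lowered the cell density, and its later experiments added the ROCK inhibitor Y27632, so dissociation, density and the inhibitor cannot be told apart in these libraries. In separate experiments the study replated cells at the same density, and passaged cells with or without Y27632. It reported cardiac differentiation in each case. Over the 4 days, 8 of 28 gene and day pairs passed the threshold, 5 higher and 3 lower in the passaged arm. On day 3, 2 genes, CER1 and FOXH1, were lower (8.49% of all genes past the threshold in either direction), and on day 5 only NODAL was lower (8.16%). On day 7, TDGF1 and LEFTY2 were higher (12.6%), and on day 10 TDGF1, LEFTY2 and FOXH1 were higher (17.4%). The median difference of the 7 genes was -0.83, -0.07, 0.36 and 0.15 on days 3, 5, 7 and 10, and that of all genes 0.03, 0, -0.07 and -0.09. In bulk RNA, fewer cells of a type and less RNA per cell cannot be told apart.

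TDGF1 in NP-ctrl was at FPKM 18.32, 5.49, 1.18 and 0.98 on days 3, 5, 7 and 10. In NP-IWP2 it was at 43.34, 12.16, 11.53 and 8.55, and in the passaged arm at 8.84, 2.34, 24.23 and 48.08. NP-ctrl was thus lower at each later day up to day 7, from which day 10 was not apart (ratio of day 7 to day 10 1.20, 0.736 to 1.97). In NP-IWP2, days 5 and 7 were not apart (ratio 1.05, 0.922 to 1.20) and day 10 was lower than day 5 (ratio 0.703, 0.608 to 0.813). The passaged arm went from the lowest of the 3 on days 3 and 5 to the highest on days 7 and 10. On these days the passaged to NP-ctrl ratio was 0.483 (0.421 to 0.552), 0.427 (0.329 to 0.549), 20.5 (14.9 to 29.0) and 48.8 (34.6 to 71.1). Within the passaged arm, day 10 was 20.5-fold day 5 (16.6 to 25.7), and no library after day 2 had more TDGF1 than this one. Its nearest neighbour was NP-IWP2 day 3, from which it differed by a ratio of 1.11 (1.03 to 1.19).

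A processed copy of TDGF1 on another chromosome, TDGF1P3, can take reads of its parent. It held 2.11% to 7.14% of the counts of both genes in 13 libraries and 0 counts in the other 2, and 3.50% (Wilson 95% interval 2.76 to 4.43) in the passaged day 10 library. LRRC2, which overlaps TDGF1 on the opposite strand, was at FPKM 2.82 in that library, where TDGF1 was at 48.08.

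LEFTY2 showed the same order of arms at lower levels. In the passaged arm it was at FPKM 0.26, 0, 5.98 and 4.48 on days 3, 5, 7 and 10, in NP-ctrl at 1.08, 0, 0.03 and 0.19, and in NP-IWP2 at 4.18, 0.03, 0.46 and 0.61. All 3 arms were at 0 or 1 count on day 5, and only the passaged arm was above an FPKM of 1 afterwards. The passaged to NP-ctrl ratio was 0.238 (0.0961 to 0.515) on day 3 and 23.0 (10.3 to 63.6) on day 10. On day 7 it was 181, with an interval of 32.2 to 7193 because NP-ctrl had 1 count. Within the passaged arm, LEFTY2 on day 10 was at least 52.2-fold higher than on day 5, where it had 0 counts. The passaged day 7 library held the highest LEFTY2 level of all 15, 1.32-fold that of day 0 (1.07 to 1.62).

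LEFTY1 did not share this. It was at or under 3 counts on all 4 days of the passaged arm and at or under 10 counts in every library after day 2. The composition of the LEFTY reads therefore differed between the stem cells and the later libraries. LEFTY2 made up 17.4% of the counts of both genes on day 0 (Wilson 95% interval 15.2 to 19.9), 18.9% on day 1 (15.3 to 23.0) and 43.4% on day 2 (34.1 to 53.3). It made up 129 of 129 counts in NP-IWP2 on day 3 (97.1 to 100), 98.6% in the passaged library on day 7 (95.8 to 99.5) and 99.4% on day 10 (96.5 to 99.9). NP-IWP2 day 7 lay between, at 63.0% (44.2 to 78.5) of 27 counts.

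**Figure D2:**
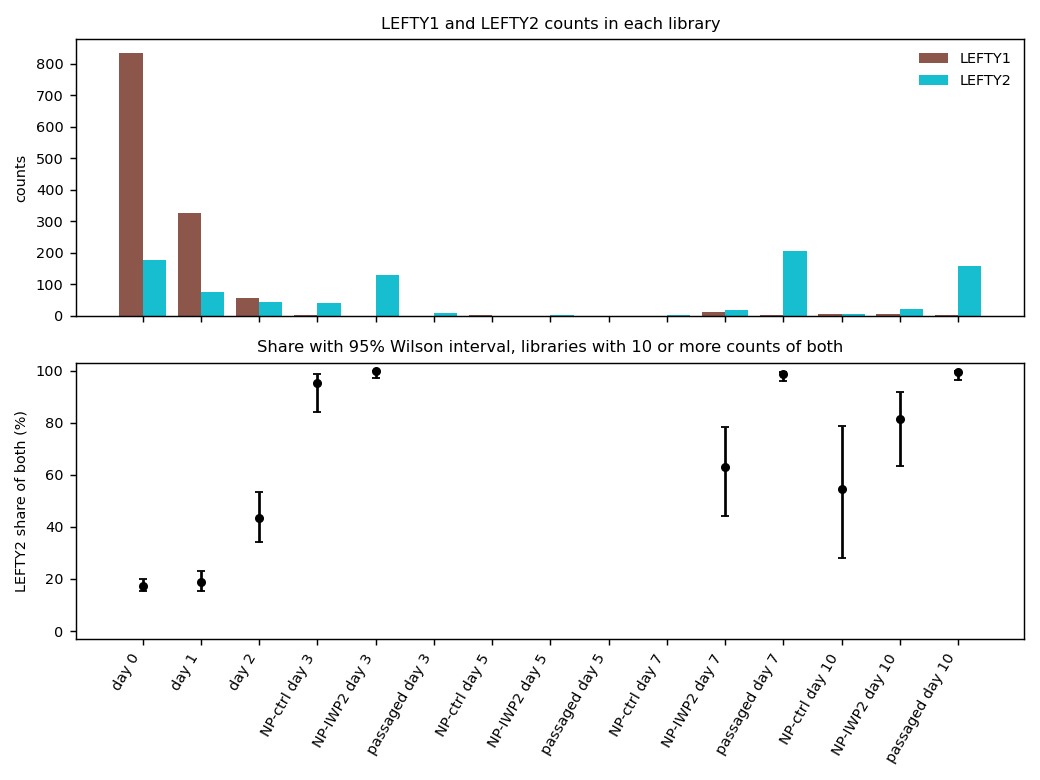
Counts of LEFTY1 and LEFTY2 in each library (upper bars) and the LEFTY2 share of the counts of both in percent with its Wilson 95% interval (lower points), for libraries with at least 10 counts of both. LEFTY1 leads on days 0 and 1, while LEFTY2 makes up 98.6% and 99.4% in the passaged libraries of days 7 and 10.

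FOXH1 (chr8:144473412-144475849, minus strand) was at FPKM 111.28, 31.29, 9.65 and 1.95 in NP-ctrl on days 3, 5, 7 and 10. It was at 124.61, 43.22, 19.84 and 5.04 in NP-IWP2, and at 47.22, 15.23, 13.82 and 6.06 in the passaged arm. Every arm was lower at each later day, except that day 5 and day 7 of the passaged arm were not apart (ratio 1.10, 0.963 to 1.26). The passaged to NP-ctrl ratio was 0.424 (0.398 to 0.452), 0.487 (0.435 to 0.544), 1.43 (1.22 to 1.68) and 3.10 (2.28 to 4.30) on the 4 days. KIFC2, its neighbour on the opposite strand, was at 14.25 in the passaged library and 7.40 in NP-ctrl on day 3, and at 4.14 and 5.09 on day 10. On both days the order of these libraries for KIFC2 was the reverse of that for FOXH1.

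NODAL itself was at FPKM 0.21, 0.19, 1.31 and 0.41 on days 3, 5, 7 and 10 of the passaged arm. In NP-ctrl it was at 1.15, 3.27, 0.80 and 0.36, and in NP-IWP2 at 1.71, 3.15, 2.76 and 0.51. The unpassaged arms had a level of about 3 on day 5 that the passaged library, with 6 counts, did not have. The passaged to NP-ctrl ratio was 0.183 (0.0632 to 0.435) on day 3 and 0.0575 (0.0207 to 0.129) on day 5. On day 7 it was 1.65 (0.959 to 2.90) and on day 10 it was 1.15 (0.466 to 2.93), both with intervals that include 1. Within the passaged arm NODAL was also higher on day 7 than on day 5, at 41 against 6 counts. On days 7 and 10, where TDGF1 and LEFTY2 were high, this arm had 41 and 13 counts of NODAL. It had 4 and 2 counts of GDF3.

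GDF3 was at FPKM 0.65, 0.26, 0.18 and 0 in NP-ctrl on days 3, 5, 7 and 10. It was at 3.00, 2.57, 0.60 and 0 in NP-IWP2, and at 0.35, 0.42, 0.22 and 0.11 in the passaged arm. CER1 was at 6.85, 0.05, 0.98 and 0.78 in NP-ctrl, at 11.08, 0.17, 0.65 and 0.46 in NP-IWP2, and at 0.18, 0, 0.11 and 0.05 in the passaged arm, where no library had more than 3 counts. The CER1 ratio of passaged to NP-ctrl was 0.0260 (0.00530 to 0.0776) on day 3, 0.111 (0.0123 to 0.470) on day 7 and 0.0681 (0.00160 to 0.453) on day 10. On day 5 both were at or under 3 counts and no ratio was taken. CER1 was therefore lower in the passaged arm on each day on which it could be compared.

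**Figure D3:**
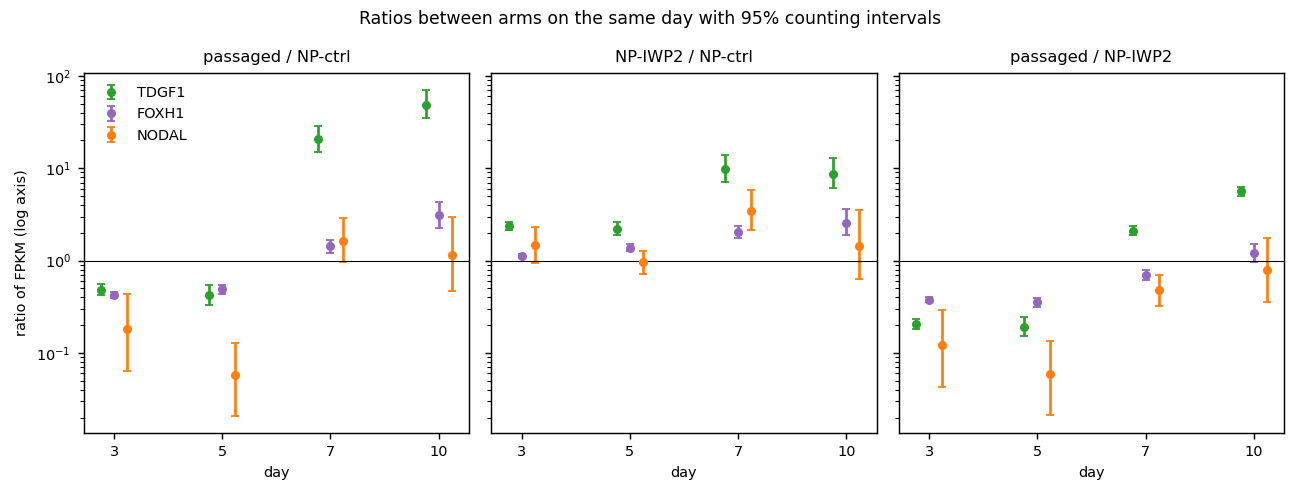
Ratio of FPKM between arms on the same day, on a log axis, for TDGF1 (green), FOXH1 (purple) and NODAL (orange), with bars for the 95% counting interval and a line at a ratio of 1. The TDGF1 ratio of passaged to NP-ctrl goes from 0.483 on day 3 to 48.8 on day 10, while the NP-IWP2 to NP-ctrl ratio stays above 1 on all 4 days.

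NP-IWP2 against NP-ctrl asks what inhibition of WNT secretion changed. All 9 of the 28 pairs that passed the threshold were higher in NP-IWP2. They were GDF3, TDGF1 and LEFTY2 on day 3 (4.15% of all genes past the threshold), GDF3 and TDGF1 on day 5 (2.97%), NODAL and TDGF1 on day 7 (7.26%), and TDGF1 and FOXH1 on day 10 (9.35%). Of all genes past the threshold, 79.3%, 47.8%, 41.1% and 39.7% were higher in NP-IWP2 on days 3, 5, 7 and 10. The median difference of the 7 genes was 0.62, 0.16, 0.50 and 0.15 on the 4 days. That of all genes was 0.06, 0, -0.01 and 0. TDGF1 was the only one of the 7 past the threshold on every day, at ratios of 2.37 (2.16 to 2.59), 2.22 (1.88 to 2.62), 9.75 (7.03 to 13.9) and 8.68 (6.06 to 12.8). GDF3 was 4.63-fold higher on day 3 (2.48 to 9.30) and 9.97-fold on day 5 (3.97 to 32.2), the latter from 45 against 5 counts. NODAL was 3.47-fold higher on day 7 (2.16 to 5.79) and, on day 5, had a ratio of 0.963 (0.721 to 1.28).

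Passaged against NP-IWP2 compares the 2 arms in which the cardiomyocyte genes were highest on days 7 and 10. It had 14 of 28 pairs past the threshold, 10 lower and 4 higher in the passaged arm. On day 3, 6 of the 7 genes were lower, LEFTY1 being the exception with 0 counts in both (8.70% of all genes). On day 5, NODAL, GDF3, TDGF1 and FOXH1 were lower (7.51%). On days 7 (6.69%) and 10 (10.1%), TDGF1 and LEFTY2 were higher and none was lower. TDGF1 had ratios of 0.204 (0.180 to 0.231), 0.193 (0.152 to 0.243), 2.10 (1.88 to 2.36) and 5.62 (5.00 to 6.34) on the 4 days. LEFTY2 had ratios of 0.0612 (0.0259 to 0.124) on day 3, 13.0 (7.93 to 22.8) on day 7 and 7.38 (4.71 to 12.1) on day 10. FOXH1 was at 0.379 (0.355 to 0.404), 0.352 (0.316 to 0.392), 0.697 (0.615 to 0.789) and 1.20 (0.968 to 1.49). These 3 sets of comparisons share libraries with each other, so their values are given side by side only.

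From day 5 to day 10, the genes that passed the threshold were lower in the unpassaged arms, and in the passaged arm 2 were higher and 1 was lower. In NP-ctrl, NODAL, TDGF1 and FOXH1 were lower (12.2% of all genes past the threshold), and in NP-IWP2, NODAL, GDF3 and FOXH1 were lower (15.3%). In the passaged arm, TDGF1 and LEFTY2 were higher and FOXH1 was lower (16.5%). FOXH1 had day 10 to day 5 ratios of 0.0624 (0.0464 to 0.0823) without treatment, 0.117 (0.0983 to 0.138) with IWP2 and 0.398 (0.334 to 0.473) after passaging.

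Marker genes of other cell types differed between the same libraries. All 5 cardiomyocyte markers (TNNT2, MYH6, NKX2-5, ACTN2 and MYL7) were higher in the passaged than in the NP-ctrl library by the threshold on days 7 and 10. Their summed FPKM in NP-ctrl, NP-IWP2 and the passaged arm was 400, 527 and 456 on day 5, 555, 2045 and 2700 on day 7, and 424, 1339 and 3276 on day 10. TDGF1 had the same order of arms as this sum on days 7 and 10, but not on day 5. The 5 pluripotency markers (POU5F1, NANOG, SOX2, DPPA4 and ZFP42) summed to 21.65, 12.69 and 7.41 on day 10 in that order of arms, against 1051 on day 0, with POU5F1 and NANOG at 0 in the passaged library. SOX2 alone was higher in the passaged library by the threshold on day 10. The 4 endoderm markers (SOX17, FOXA2, HHEX and FOXA1) summed to 25.88, 18.84 and 3.41 on day 5 and to 8.95, 10.29 and 0.56 on day 10, with FOXA2 at 0 in the passaged day 10 library. The 4 primitive streak markers (TBXT, MIXL1, EOMES and GSC) summed to 49.74, 117.93 and 13.27 on day 3. By FPKM this was the order of arms for 6 of the 7 genes, all but LEFTY1. For NODAL and GDF3 counting error left part of the order unresolved. The streak markers summed to 1.29, 3.70 and 6.57 on day 7, and to 0.93, 2.76 and 8.33 on day 10. TDGF1 had this order of arms too on those days. On day 10, 3 of the 4 streak markers were at or under 3 counts in the passaged library. The part of these cell types in the levels of the 7 genes was not tested.

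Days are the only repetition of an arm, so the arms were also compared over days 3, 5, 7 and 10 in a fit of the counts with day as a factor (edgeR quasi-likelihood test, Benjamini-Hochberg adjusted over 21206 genes). CER1 was the only one of the 7 genes to pass an adjusted p of 0.05. In passaged cells it fell by 4.22 on the log2 scale against NP-ctrl (SE 0.71, adjusted p = 0.00874, with 4.40% of all genes called) and fell by 4.30 against NP-IWP2 (SE 0.71, adjusted p = 0.0184, 1.33% called). The passaged arm had 0 to 3 counts of CER1, so these fitted sizes are no measure of the fold. CER1 was also called by DESeq2 and with no filter in both comparisons. Over all alternatives its adjusted p ranged from 2.2e-06 to 0.256 against NP-ctrl and from 3.1e-06 to 0.398 against NP-IWP2. It was not called by limma or in a fit of the compared arms alone. Without day 3 neither comparison called CER1 and both called LEFTY2 (edgeR adjusted p = 0.00247 against NP-ctrl and 0.0349 against NP-IWP2), and without day 5 or day 7 it was not called against NP-IWP2.

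In passaged cells LEFTY2 was higher by 4.06 against NP-ctrl (SE 1.35, edgeR adjusted p = 0.119) and TDGF1 by 2.33 (SE 1.18, edgeR adjusted p = 0.322), neither past the threshold. Both were called with no filter. For both genes the ratios on day 3 were under 1 and those on days 7 and 10 far over 1, so that a mean over days combines opposite directions. For NP-IWP2 against NP-ctrl, edgeR called none of the 7 genes and 0.0189% of all genes, with 1 of the 7 at an unadjusted p under 0.05 and none called by DESeq2 or limma. This 1 gene was GDF3 (log2 difference 2.24, SE 0.74, edgeR adjusted p = 0.891), and TDGF1 was at 1.65 (SE 0.95, adjusted p = 0.973). With only the compared arms, edgeR called TDGF1 (2.04, SE 0.36, adjusted p = 0.0182) among 277 genes in all. With no filter edgeR also called TDGF1 (1.65, SE 0.40, adjusted p = 0.0131), among 372 genes.

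Of 27 other genes of the pathway, listed by role, 24 reached an FPKM of 1. From day 0 to day 1, 6 of the 24 (25%) were higher and none lower, with 6.74% of all genes past the threshold. The 6 were the targets EOMES, MIXL1, GSC and FOXA2, and the inhibitors FST, which binds activin, and PMEPA1. EOMES, a T-box factor of the primitive streak, went from FPKM 0.19 to 169.14, and MIXL1, a homeobox factor of the same stage, from 3.27 to 788.66. From day 1 to day 2, 4 were higher and 4 lower, or 33.3% of the 24 against 7.00% of all genes. LHX1, a LIM homeobox factor, went from FPKM 0.40 to 176.93 at this step.

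ACVR1B, a type I receptor for NODAL and activin, ranged from FPKM 8.59 to 22.03 over all libraries, ACVR2B, a type II receptor, from 9.53 to 21.37, and SMAD4 from 7.20 to 17.20. CFC1, the other EGF-CFC co-receptor, was at 0 on days 0 and 1, at 2.30 on day 2, and at 393, 239 and 257 on day 3 in NP-ctrl, NP-IWP2 and the passaged arm. It was at 0.98, 1.77 and 4.99 on day 10. CFC1 was thus highest on day 3 in all 3 arms, when TDGF1 was already below its day 2 level. CFC1 has a near-identical copy, CFC1B, which was at up to 14.12, so the level of CFC1 is uncertain. GDF1, a ligand that shares exons with CERS1 on the same strand, was listed at FPKM 0 throughout.

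On day 3, EOMES was at FPKM 15.31 in the NP-ctrl library, 46.80 with IWP2 and 3.52 after passaging, and MIXL1 at 22.28, 58.29 and 2.33. Both were higher in NP-IWP2 and lower in the passaged library than in NP-ctrl by the threshold. On day 10 MIXL1 was at 0.73, 2.67 and 8.33 in NP-ctrl, NP-IWP2 and the passaged arm, and EOMES was at or under 0.09 in all 3. Between the passaged and NP-ctrl libraries of days 3, 5, 7 and 10, the numbers of these 24 genes past the threshold were 3, 3, 2 and 5, or 12.5%, 12.5%, 8.33% and 20.8%, near the 8.49%, 8.16%, 12.6% and 17.4% of all genes. FOXA2 was lower on the last 3 of these days.

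In the edgeR fits over days, INHBA, which encodes an activin subunit, rose with passaging against NP-ctrl by 1.61 on the log2 scale (SE 0.38, adjusted p = 0.0388), from FPKM 0.03, 0.05, 0.30 and 0.80 to 0.06, 0.11, 1.10 and 2.54 on the 4 days. TGIF1, a repressor of SMAD activity, fell by 0.61 (SE 0.15, adjusted p = 0.0484). Neither was called with limma, with only the compared arms, or without day 5, day 7 or day 10, where none of the 24 was called. Against NP-IWP2, EOMES fell by 2.91 in passaged cells (SE 0.46, edgeR adjusted p = 0.0149), but none of the 24 was called there with limma, without day 5 or without day 7. None of the 24 was called by edgeR for NP-IWP2 against NP-ctrl, with 2 at an unadjusted p under 0.05 and none called by DESeq2 or limma, while 1 was called higher with no filter and 1 with only the compared arms. EOMES and MIXL1 are also in the primitive streak marker list, and SOX17 and FOXA2 in that of endoderm.

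**Figure D4:**
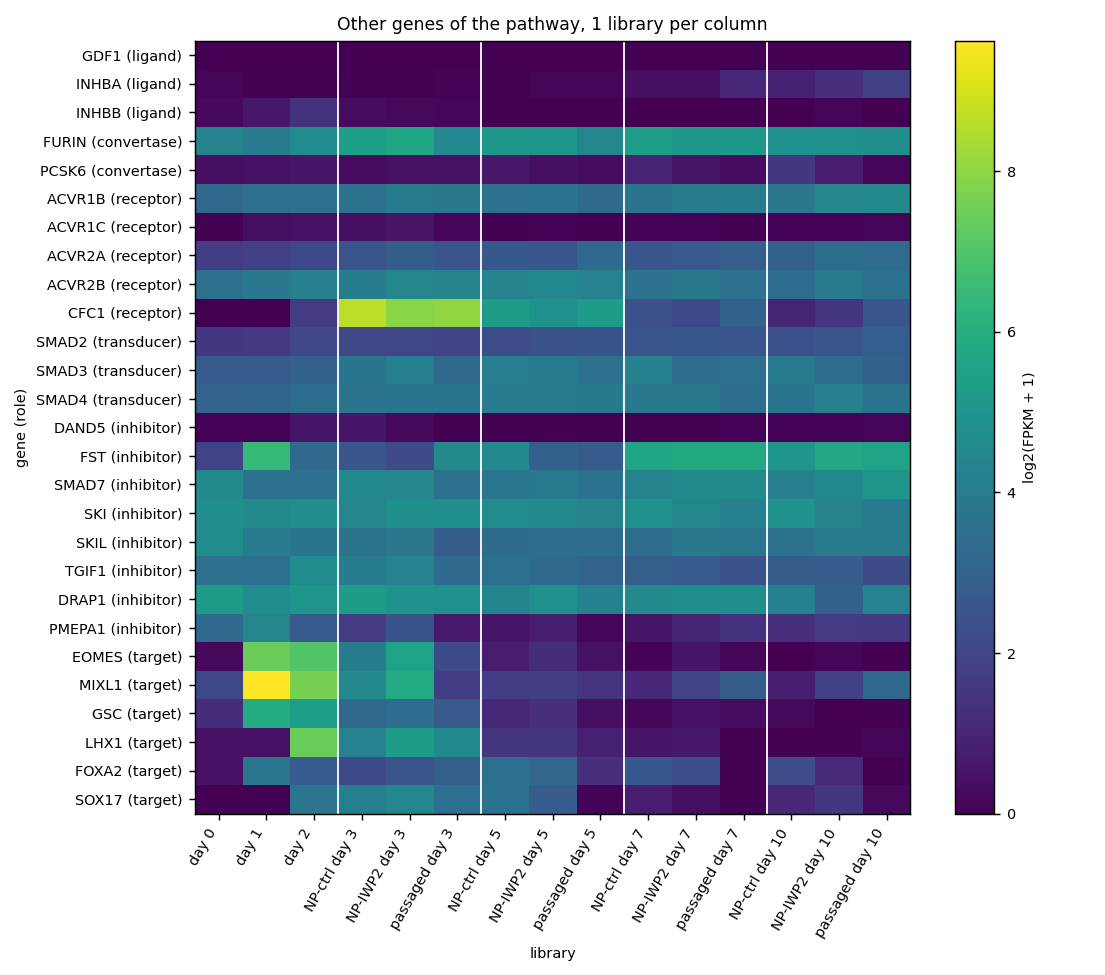
Levels of 27 other genes of the pathway as log2(FPKM + 1), with genes in rows by role and the 15 libraries in columns ordered by day, white lines separating the shared days and days 3, 5, 7 and 10. The targets EOMES, MIXL1, GSC and LHX1 are bright on day 1 or day 2 and CFC1 on day 3. On this scale ACVR1B ranges from 3.26 to 4.53, ACVR2B from 3.40 to 4.48 and SMAD4 from 3.04 to 4.19.

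The order of the 15 levels of a gene was resolved to different depths. TDGF1 and FOXH1 each had 11 of 14 neighbouring pairs of libraries whose ratio had an interval above 1. NODAL, GDF3 and CER1 had 4 such pairs, and LEFTY1 and LEFTY2 had 3. For NODAL the order day 1, day 0, day 2 and NP-ctrl day 5 was resolved, while from the NP-IWP2 day 3 library downward no neighbouring pair was apart.

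Over the 15 libraries, the protein-coding gene whose log2(FPKM + 1) was most like that of NODAL was BEND4 (Pearson r = 0.92), followed by FGF19 and PCSK1 (both r = 0.91). BEND4 was also the nearest to GDF3 (r = 0.97), followed by HSD11B2 and NANOG. Nearest to CER1 were CD1D (r = 0.97), BNIP3 and TBXT, the streak factor brachyury. LEFTY1 was most like SOX14 (r = 0.98), SIX6 and NANOGP8, a copy of NANOG whose reads are hard to tell from it, and LEFTY2 most like RASSF3 (r = 0.86), WNK2 and COX5A. TDGF1 was most like VDAC1 (r = 0.93), PLBD1 and CTSC, and FOXH1 most like RCOR2 (r = 0.97), NOB1 and BUD13. These correlations describe 15 libraries that share an early course and were taken among 7289 genes. Among the 7 genes themselves, NODAL and GDF3 had r = 0.89 and LEFTY1 and LEFTY2 r = 0.39, and LEFTY2 had its highest value with TDGF1 (r = 0.73).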

How the data were processed

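H1 cells were sequenced as bulk RNA at 15 combinations of day and arm, 1 library each. Per the study's methods and the submitters' processing notes, reads were trimmed with cutadapt 1.9.1, aligned to hg38 with HISAT2 2.0.1 and counted with HTSeq 0.6.1, and DESeq2 served for their tests. A long-read library kit is named beside these short-read tools, and the kind of reads could not be settled. The deposited table holds a whole-number read count and an FPKM value per gene and library. The authors' FPKM equals the count divided by exonic length and total count, recomputed to within 0.005.

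Groups came from the sample titles. Between 2 libraries, log2(FPKM + 1) was subtracted (pseudocount 1, threshold 1), among the genes that reached an FPKM of 1 somewhere, and ratios were given exact Clopper-Pearson intervals. A 0 was set to 3 counts. Arms were compared over days with edgeR 4.0.16 (R 4.3.3) on the counts of 12 libraries, with TMM and day as a factor, and SEs were derived from the fold change and its F statistic. These p-values treat days as replicates of an arm and measure the spread left after day and arm are fitted. That spread is 1 estimate per gene from all 3 arms. A comparison of 2 arms thus also carries the variation of the remaining arm between days, except in the fits of only the compared arms. The steps were tested on simulated data.

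All 7 genes were named. The other pathway genes were a list by role, named where a result turned on them and with 1 listed gene not reported here, and the 3 most similar protein-coding genes per member were taken by Pearson correlation among those reaching an FPKM of 10. The genes, lists and tests were chosen with earlier results of these data known. Alternatives were DESeq2 1.42.0, limma 3.58.1, other fits and scalings, a pseudocount of 0.1, a threshold of 2, and leaving out each day. All 15 count columns and all 15 FPKM columns were used. Depths of 13254723 to 20250115 counts limit genes near 3 counts. Promoters are from RefSeq, matched by symbol for 3 of the printed genes.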

Additional observations from a re-analysis of the deposited data

Results flagged for a closer look

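For 3 genes the ratio of the passaged library to an unpassaged library on the same day was under 1 at the earlier days and over 1 at the later days, with counting intervals that exclude 1. TDGF1 had passaged to NP-ctrl ratios of 0.483, 0.427, 20.5 and 48.8 on days 3, 5, 7 and 10. LEFTY2 had ratios of 0.238, 181 and 23.0 on days 3, 7 and 10, the day 7 value resting on 1 count in NP-ctrl. FOXH1 had ratios of 0.424, 0.487, 1.43 and 3.10 on days 3, 5, 7 and 10. Against NP-IWP2, TDGF1 had ratios of 0.204, 0.193, 2.10 and 5.62 on the 4 days, and LEFTY2 of 0.0612, 13.0 and 7.38 on days 3, 7 and 10. With 1 library per arm and day, the difference between days was not tested. The passaged arm enters both sets of ratios, so they are not independent of each other.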

How the results depend on the processing

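Between 2 libraries, 376 of 420 values of the 7 genes under another pseudocount or scaling kept their side of the threshold, 41 more passed it and 3 no longer did. None of the pairs past the threshold as reported reversed direction. For smaller differences the direction was not compared. With a pseudocount of 0.1 the pairs past the threshold were 18 for passaged against NP-ctrl, 14 for NP-IWP2 against NP-ctrl, 22 for passaged against NP-IWP2 and 17 from day 5 to day 10, with 12.4% to 32.9% of all genes past it over the 20 comparisons of libraries, against 2.97% to 17.4% as reported. At a threshold of 2 they were 4 from day 0 to day 2, 8 from day 2 to day 3, and 5, 2, 5 and 4 for the same 4 sets, with 0.222% to 3.78% of all genes. With TPM the median of all genes for passaged against NP-ctrl on day 10 was -0.28, against -0.09 as reported, and with TMM it was 0 in every comparison. In the fits over days, with no filter 3 genes were called for passaged against NP-ctrl (CER1, LEFTY2 and TDGF1), 3 for passaged against NP-IWP2 (CER1, LEFTY2 and NODAL) and 1 for NP-IWP2 against NP-ctrl (TDGF1). With only the compared arms the counts were 0, 0 and 1 (TDGF1), and with limma 0, 0 and 0. Leaving out a day gave 0 to 1 for passaged against NP-IWP2, 0 without day 5 or day 7, and LEFTY2 in place of CER1 without day 3 (adjusted p = 0.0349). Calls over all genes ranged from 109 to 2571 for passaged against NP-ctrl (933 as reported), 6 to 1368 for passaged against NP-IWP2 (282) and 0 to 372 for NP-IWP2 against NP-ctrl (4). Of 168 values of the 7 genes in these fits, 12 reversed, none of them past the threshold. For NP-IWP2 against NP-ctrl, LEFTY1 was at -0.77 with DESeq2 and -0.13 with no filter, and leaving out a day gave -1.28 to 0.80 for LEFTY1 and -0.23 to 0.33 for CER1. For passaged against NP-ctrl, FOXH1 was at 0.013 with DESeq2, and leaving out a day gave -0.60 to 0.46 for FOXH1 and -0.039 to 1.04 for GDF3. For passaged against NP-IWP2, TDGF1 was at -0.19 with limma, -0.22 with only the compared arms and -0.70 to 1.35 leaving out a day. The cause was not tested. LEFTY1 had at most 10 counts after day 2, and after day 5 CER1 had at most 16 and GDF3 at most 12.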
